A study of Rattus norvegicus with 6 samples.

Results

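The epithelial sodium channel (ENaC) and the genes through which aldosterone controls it were compared between 2 diets in rat kidney. The 9 genes were chosen by name from the known pathway out of 17051 genes in the deposited tables. They are the channel subunits *Scnn1a*, *Scnn1b* and *Scnn1g*, the kinase *Sgk1*, the ubiquitin ligase *Nedd4l*, the receptors *Nr3c2* and *Nr3c1*, the enzyme *Hsd11b2* and the hormone target *Tsc22d3*. All 9 were present in every rat and entered the test across 11553 genes. The study asked how the kidney responds when ammonia production is raised by feeding amino acids. Kidney tissue came from male Sprague Dawley rats on normal chow (AL group, with rats 61, 71 and 88) and on the hyperammonemic diet (HD group, with rats 64, 67 and 69). HD rats ate chow powder mixed with amino acids that mimic hemoglobin, at a daily 3 g per kg, and AL rats ate plain chow ad libitum. Both diets lasted 7 days and ended with surgery under isoflurane anesthesia in all rats, and the sample labels give the tissue as kidney with no region.

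ENaC lets sodium cross the luminal membrane of the late distal convoluted tubule, the connecting tubule and the collecting duct, and it limits how much sodium these segments reabsorb. Aldosterone binds the mineralocorticoid receptor (*Nr3c2*) in these cells, the receptor induces *Sgk1*, and the SGK1 kinase keeps the ligase NEDD4-2 (*Nedd4l*) from removing the channel. The same receptor also binds corticosterone, the main glucocorticoid of the rat, so aldosterone target cells carry 11β-hydroxysteroid dehydrogenase type 2 (*Hsd11b2*), which inactivates it. Tubules without this enzyme respond to corticosterone mainly through the glucocorticoid receptor (*Nr3c1*), and *Tsc22d3* (GILZ) is a target of both receptors.

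Promoter sequences were taken from RefSeq on the GRCr8 assembly, whose coordinates differ from those of rn5, the build of the deposited files. The RefSeq table held 11 transcription starts of 6 of the 9 genes, and none of *Scnn1a*, *Nr3c2* or *Hsd11b2*. Each sequence below is the 250 bases before a start, 5′ to 3′ on the strand of the gene, with TATAAA, the core of a TATA box, in capitals. The pair of *Sgk1* starts is shown because they lie 739 bases apart, as do those of the 2 main *Sgk1* transcripts in the files, and because they differ in this motif. The start of the main transcript is named from this spacing alone. The spacing from the next start to the outermost one differs between the builds, at 1937 bases in rn5 and 1661 in GRCr8. *Scnn1b* and *Scnn1g* are shown as neighbours on chromosome 1 whose levels are compared below.
Sgk1, start of the main transcript, chr1:24804832-24805081, minus strand: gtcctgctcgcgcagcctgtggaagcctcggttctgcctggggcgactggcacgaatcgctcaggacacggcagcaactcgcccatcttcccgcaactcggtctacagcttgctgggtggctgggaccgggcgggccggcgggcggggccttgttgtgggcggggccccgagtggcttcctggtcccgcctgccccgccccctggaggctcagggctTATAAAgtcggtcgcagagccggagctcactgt
Sgk1, next start upstream, chr1:24805571-24805820, minus strand: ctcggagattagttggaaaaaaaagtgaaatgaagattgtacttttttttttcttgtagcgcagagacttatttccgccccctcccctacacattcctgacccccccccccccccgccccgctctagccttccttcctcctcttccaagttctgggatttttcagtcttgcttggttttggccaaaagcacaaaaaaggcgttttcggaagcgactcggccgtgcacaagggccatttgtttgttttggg
Scnn1b, chr1:185861126-185861375, plus strand: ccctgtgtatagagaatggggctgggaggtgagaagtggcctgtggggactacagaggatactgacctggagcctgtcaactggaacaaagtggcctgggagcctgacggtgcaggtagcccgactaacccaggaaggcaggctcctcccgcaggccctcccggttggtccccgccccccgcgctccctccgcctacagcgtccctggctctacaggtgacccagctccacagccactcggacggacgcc
Scnn1g, chr1:185735975-185736224, plus strand: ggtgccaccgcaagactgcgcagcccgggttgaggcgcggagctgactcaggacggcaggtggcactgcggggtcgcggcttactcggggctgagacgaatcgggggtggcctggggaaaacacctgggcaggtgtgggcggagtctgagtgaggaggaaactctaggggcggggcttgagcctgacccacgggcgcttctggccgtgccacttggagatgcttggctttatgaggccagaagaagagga
TATAAA (or TTTATA, its other strand) occurred before 3 of the 11 starts and in 12.9% of 33469 promoters of the same length. It lay 33 bases before the main *Sgk1* start and 55 bases before the outermost *Sgk1* start, and neither strand of it occurred before the start between them. The steroid receptor half-site AGAACA (other strand TGTTCT) was present in 17.5% of all promoters and before 0 of the 11 starts. Its paired form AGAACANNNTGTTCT was present in 0.012% of all promoters and before 0 of the 11 starts. These letters say nothing of sites outside the 250 bases, or of the genes without a listed start.

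Total estimated counts were 12499945 to 30466461 per rat, lowest in rat 64 and highest in rat 69. Levels are given as CPM (counts scaled to library size) after TMM normalization, which suits the same gene across rats, or as TPM (transcripts in the same scaling), which corrects for length and suits different genes. Fold changes are HD over AL from edgeR's quasi-likelihood test, whose adjusted *P* values were taken over all 11553 genes. The kidney label held, since markers of proximal tubule, thick ascending limb and collecting duct were abundant and the 4 adrenal cortex genes summed to no more than 0.92 TPM. The make-up of the tissue differed between the groups. Markers of distal convoluted and connecting tubule had a median log2 fold change of 2.67 and podocyte markers of 2.35, against −1.42 for inner medulla and −1.41 for leukocyte markers. In bulk tissue, fewer cells of a type and less RNA per cell cannot be told apart, and this applies to every difference below.

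Of the 9 genes, 5 had a higher and 4 a lower fitted level on the HD diet. Their median log2 fold change was 0.04, against 0.0067 over all tested genes. None passed an adjusted *P* value of 0.05 in edgeR, and neither did any of the 11553 genes (0.0% called), the lowest adjusted *P* value among them being 0.098. Without adjustment, 3 of the 9 genes had *P* below 0.05, against 10.6% of all tested genes. *Hsd11b2* and *Scnn1b* were called on the higher side, where 4.66% of all genes were called. *Tsc22d3* was called on the lower side, where 5.94% were. Without rat 88 only *Hsd11b2* had an unadjusted *P* value below 0.05, and the count over all genes dropped from 1224 to 606 (it was 639 without rat 64). The groups did not overlap in CPM for 2 of the 9 genes, *Hsd11b2* and *Scnn1b*, against 14.3% of all genes. Both lay higher in every HD rat (7.25% of all genes did), and 0 of the 9 lay lower in every HD rat (7.01% of all genes did). Leaving out rat 71 or rat 69, which loosens this criterion for every gene, gave 4 such genes. The share of all genes so separated was not counted in those settings. DESeq2 called 1 of the 9 genes after adjustment, *Hsd11b2*, against 1.58% of 11543 genes.

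**Figure D1:**
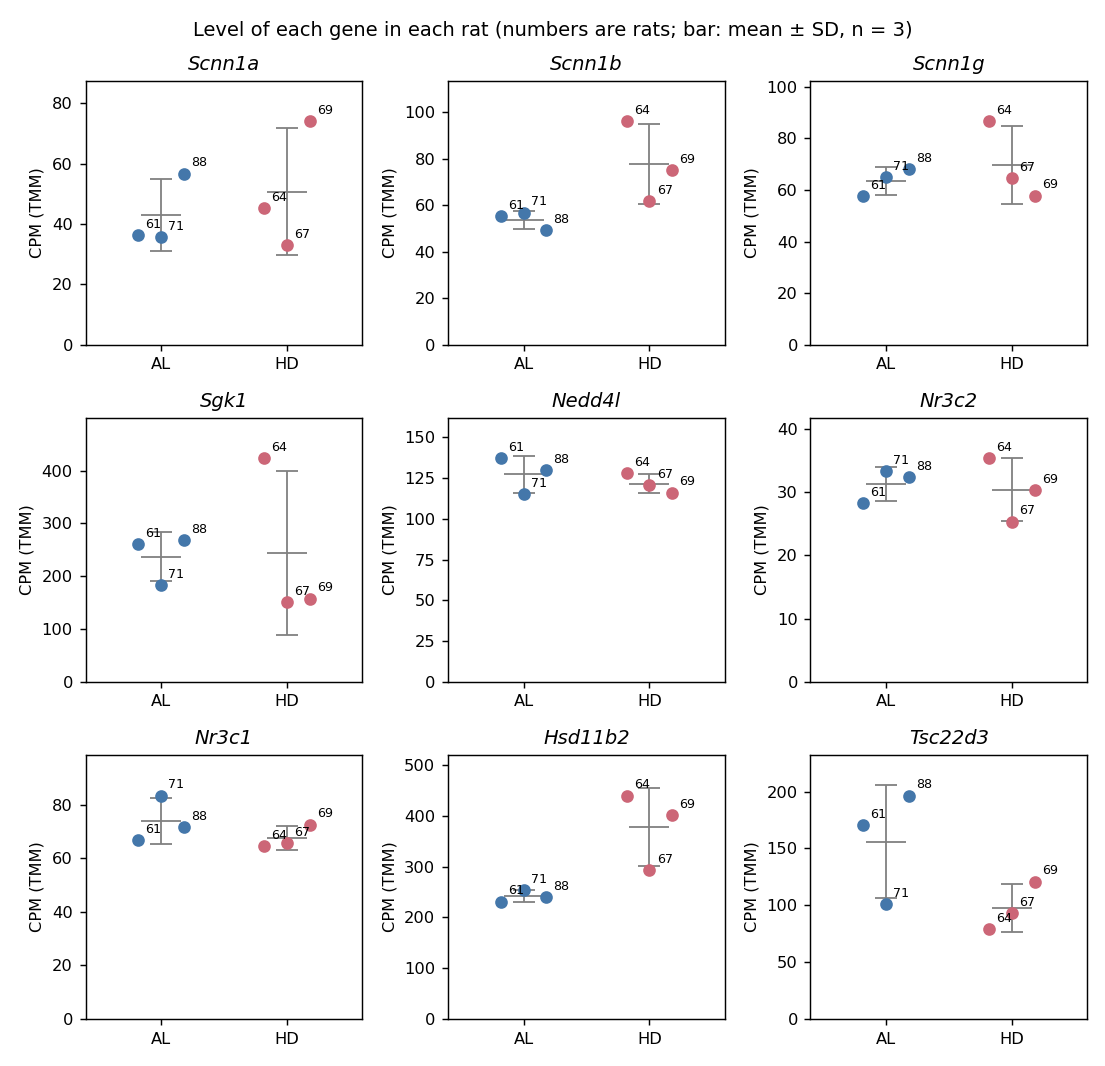
TMM-normalized CPM (vertical axes, starting at 0) of the 9 genes in each rat, with AL rats in blue, HD rats in red, rat numbers beside the points, and bars for the mean ± SD of 3 rats. *Hsd11b2* and *Scnn1b* are the only panels in which every HD rat lies above every AL rat, and *Sgk1* in rat 64 reaches 423.1 CPM while the other HD rats lie at 150.4 and 157.7 CPM.

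Fitted log2 fold changes of the channel subunits were all above 0, and only that of *Scnn1b* had an unadjusted *P* value below 0.05. *Scnn1b*, which encodes the β subunit, lies at rn5 chr1:198932512-198953453 with 12 exons. It had 55.1, 56.8 and 49.2 CPM in AL rats 61, 71 and 88, and 96.1, 61.8 and 75.1 CPM in HD rats 64, 67 and 69. Every HD rat lay above every AL rat, rat 67 by the smallest margin, and the HD rats spread more widely (77.7 ± 17.3 against 53.7 ± 3.99 CPM, mean ± SD, n = 3). The level was 1.45-fold higher in HD rats (95% interval 1.1 to 1.9), or 0.53 ± 0.17 (SE) on the log2 scale. The unadjusted *P* value was 0.0155 and the adjusted *P* value 0.406 in edgeR (0.187 in DESeq2). An exact permutation test of 3 against 3 rats gave *P* = 0.1, two-sided, the smallest it can give. Without rat 64 the log2 fold change was 0.35, and without rat 88 the unadjusted *P* value was 0.0582 in edgeR. On the TPM scale the groups overlapped, since rat 67 (37.7 TPM) lay below rat 71 (41.2 TPM).

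*Scnn1a*, the α subunit, without which the channel conducts little current, lies at rn5 chr4:224853955-224877154 with 12 exons. Its level was 36.4, 35.6 and 56.6 CPM in AL rats 61, 71 and 88, and 45.2, 32.9 and 74.0 CPM in HD rats 64, 67 and 69. The lowest and the highest level both came from HD rats, so the groups overlapped across the whole range. *Scnn1a* had a log2 fold change of 0.25 ± 0.31 (SE), with a 95% interval from −0.49 to 0.98 and an adjusted *P* value of 0.848 in edgeR. Its sign turned without rat 69 (−0.13).

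*Scnn1g*, the γ subunit, lies at rn5 chr1:198620974-198655013 with 13 exons, 277498 bases from *Scnn1b*. In rn5 it is on the plus strand and *Scnn1b* on the minus strand, whereas RefSeq places both on the plus strand of GRCr8. AL rats 61, 71 and 88 had 57.5, 65.0 and 68.0 CPM, and HD rats 64, 67 and 69 had 86.7, 64.7 and 57.8 CPM. Rat 64 was the highest, as for *Scnn1b*, while rats 67 and 69 lay within the AL range. The log2 fold change was 0.13 ± 0.17 (SE), with a 95% interval from −0.26 to 0.52 and an adjusted *P* value of 0.844 in edgeR, and without rat 64 it was −0.05.

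Relative amounts of the subunits were compared within each rat as shares of their summed TPM. The sum was 90.3 ± 11.9 TPM in AL and 108 ± 21.2 TPM in HD rats (mean ± SD, n = 3). *Scnn1b* made up 43.5, 42.4 and 34.3% of it in AL rats 61, 71 and 88, and 48.7, 45.2 and 43.3% in HD rats 64, 67 and 69. Its share was the largest in 5 of 6 rats, all but rat 88, and the groups overlapped by a narrow margin between rats 69 and 61. The share was 5.69 percentage points higher in HD rats, with *P* = 0.2 in a two-sided exact permutation test. *Scnn1g* held 37.7 ± 1.28% in AL and 33.3 ± 5.85% in HD rats, a spread set by rat 69 with 26.7%. *Scnn1a* held the smallest share in 5 of 6 rats, and its highest shares were in rat 88 (27.8%) and rat 69 (30%), 1 of each diet. Exact permutation *P* values for the shares of *Scnn1g* and *Scnn1a* were 0.2 and 0.7.

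**Figure D2:**
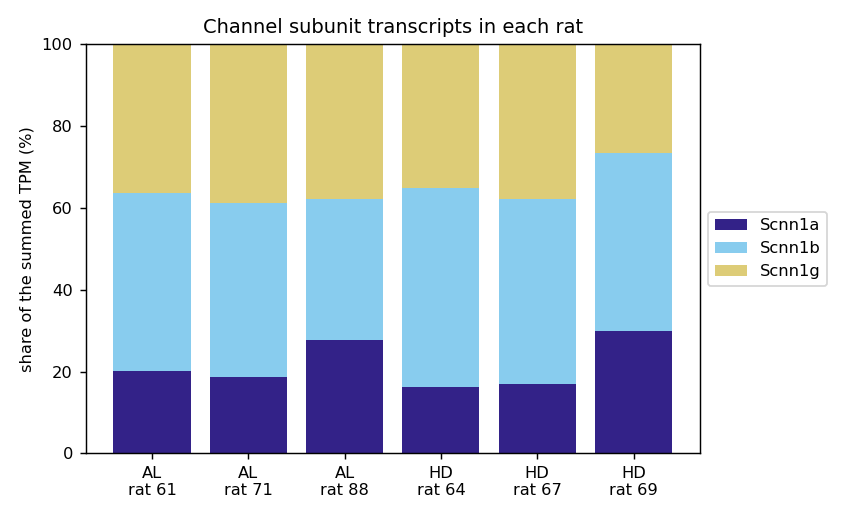
Share (%) of *Scnn1a*, *Scnn1b* and *Scnn1g* in their summed TPM, with 1 stacked bar for each rat and no error bars. *Scnn1a* is the smallest part in every rat but rat 69, where it takes 30% and *Scnn1g* 26.7%.

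*Sgk1*, the aldosterone-induced kinase, was the most variable of the 9 genes across rats. Its main transcript lies at rn5 chr1:25652751-25658190 with 12 exons. The gene had 260.8, 183.0 and 267.6 CPM in AL rats 61, 71 and 88, and 423.1, 150.4 and 157.7 CPM in HD rats 64, 67 and 69. Rat 64 was the highest of all and rats 67 and 69 the lowest of all, so the HD group enclosed the whole AL range. The means were 237 ± 47.0 CPM in AL and 244 ± 155 CPM in HD rats (SD, n = 3). The log2 fold change was 0.04 ± 0.40 (SE), with a 95% interval from −0.90 to 0.98 and an adjusted *P* value of 0.988 in edgeR. The direction was not stable. Without rat 64 the log2 fold change was −0.62, with an unadjusted *P* value of 0.0176 and an adjusted *P* value of 0.844 in edgeR. It was also negative without rat 71 (−0.11) and with library size alone as the scaling (−0.05).

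The files list 3 *Sgk1* transcripts that differ in where they begin. The main transcript, matched only by spacing to the TATAAA-bearing start shown above, took 98.1, 97.2 and 92.0% of the counts in AL rats 61, 71 and 88. In HD rats 64, 67 and 69 it took 97.1, 98.8 and 92.0%. The transcript that begins 739 bases upstream took 1.92, 2.82 and 7.22% in the same AL rats, and 2.92, 1.21 and 7.98% in the HD rats. Its share was highest in rat 88 and rat 69, 1 of each diet, and the high *Sgk1* level of rat 64 came with 97.1% main transcript. The outermost transcript had counts only in rat 88 (0.796%).

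*Nedd4l*, the ligase that SGK1 holds in check, was the steadiest of the 9 genes. It lies at rn5 chr18:59595643-59921504 with 32 exons. It had 137.1, 115.0 and 129.8 CPM in AL rats 61, 71 and 88, and 127.9, 120.6 and 116.1 CPM in HD rats 64, 67 and 69. The HD rats lay inside the AL range, with means of 127 ± 11.2 CPM in AL and 122 ± 5.97 CPM in HD rats. The log2 fold change was −0.07 ± 0.11 (SE), with a 95% interval from −0.33 to 0.19 and an adjusted *P* value of 0.888 in edgeR. In TPM, which rescales each library to transcript length and total, every HD rat (41.9 to 45.2) lay below every AL rat (47.1 to 50.03). The exact permutation *P* was 0.1, the smallest it can give, and the share of all genes so separated in TPM was not counted. TPM carries no TMM correction. With library size alone as the scaling, the log2 fold change was −0.14 for *Nedd4l*, and its median over all tested genes was −0.074.

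The mineralocorticoid receptor gene *Nr3c2* differed little between the diets. It lies at rn5 chr19:45287442-45639834 with 10 exons. AL rats 61, 71 and 88 had 28.3, 33.3 and 32.3 CPM, and HD rats 64, 67 and 69 had 35.3, 25.3 and 30.3 CPM. The groups overlapped, with the highest and the lowest value both in HD rats. *Nr3c2* had a log2 fold change of −0.05 ± 0.15 (SE), with a 95% interval from −0.40 to 0.31 and an adjusted *P* value of 0.955 in edgeR, and without rat 67 it was 0.07.

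The glucocorticoid receptor gene *Nr3c1* lies at rn5 chr18:31408742-32348480 with 8 exons. It had 66.7, 83.4 and 71.5 CPM in AL rats 61, 71 and 88, and 64.5, 65.5 and 72.5 CPM in HD rats 64, 67 and 69. Rat 71 was the highest and the groups overlapped, with a log2 fold change of −0.13 ± 0.12 (SE), a 95% interval from −0.41 to 0.15 and an adjusted *P* value of 0.769 in edgeR. Per length, *Nr3c1* was more abundant than *Nr3c2* in every rat, with a TPM ratio of 2.14 ± 0.134 in AL and 2.05 ± 0.357 in HD rats (SD, n = 3).

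*Hsd11b2*, the enzyme that shields the mineralocorticoid receptor from corticosterone, had the smallest *P* value of the 9 genes. It lies at rn5 chr19:48341841-48347084 with 5 exons. Its level was 231.1, 253.6 and 240.2 CPM in AL rats 61, 71 and 88, and 439.9, 292.4 and 401.3 CPM in HD rats 64, 67 and 69. Every HD rat lay above every AL rat, with the AL rats close together (242 ± 11.3 CPM) and rat 67 the lowest of the HD rats (378 ± 76.5 CPM, SD, n = 3). The level was 1.56-fold higher in HD rats (95% interval 1.2 to 2.04), or 0.64 ± 0.16 (SE) on the log2 scale. The unadjusted *P* value was 0.00506 and the adjusted *P* value 0.390 in edgeR, and an exact permutation test gave *P* = 0.1. In DESeq2 the adjusted *P* value was 0.0359, while it ranged from 0.0359 to 0.916 over DESeq2 on all rats and the 13 edgeR alternatives, with the log2 fold change between 0.52 and 0.80. With DESeq2 and 1 rat left out, the adjusted *P* value was 0.0776 (without rat 61), 0.121 (rat 71), 0.356 (rat 88), 0.340 (rat 64), 3.96e-06 (rat 67) and 0.0666 (rat 69). In TPM rat 67 (230.2) lay below rat 71 (237.4), so the groups overlapped on that scale.

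*Hsd11b2* was also set against the receptor it guards. The TPM ratio of *Hsd11b2* to *Nr3c2* was 25.7, 24.0 and 23.4 in AL rats 61, 71 and 88, and 39.2, 36.3 and 41.6 in HD rats 64, 67 and 69. The means were 24.4 ± 1.21 and 39.1 ± 2.65 (SD, n = 3), and the groups lay well apart. This ratio was chosen after its values were seen and was not tested.

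**Figure D3:**
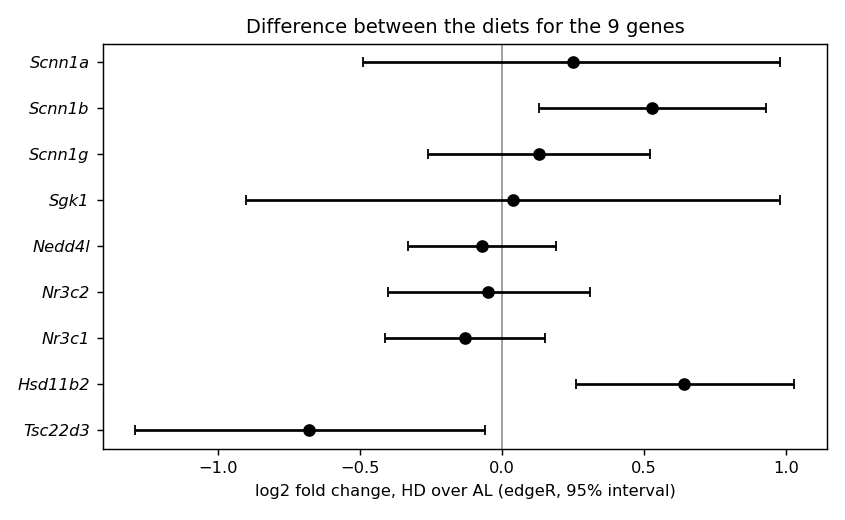
Log2 fold change, HD over AL, of the 9 genes (points) with 95% intervals from edgeR (bars), and a vertical line at 0. The intervals of *Scnn1b* (0.13 to 0.93), *Hsd11b2* (0.26 to 1.03) and *Tsc22d3* (−1.29 to −0.06) do not include 0, before any adjustment for the number of genes tested.

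*Tsc22d3*, a transcriptional regulator induced by aldosterone and by glucocorticoids, lay on the opposite side. The files place it at rn5 chr3:52711812-52715433 with 3 exons, whereas RefSeq places the gene on chromosome X of GRCr8. Whether reads were divided between near-identical copies was not checked, so its level is uncertain to that extent. It had 170.8, 100.8 and 196.6 CPM in AL rats 61, 71 and 88, and 78.9, 92.8 and 120.8 CPM in HD rats 64, 67 and 69. The groups overlapped, because rat 69 lay above rat 71. The level in HD rats was 0.626 times that in AL rats (95% interval 0.408 to 0.960), or −0.68 ± 0.26 (SE) on the log2 scale. The unadjusted *P* value was 0.0357 and the adjusted *P* value 0.440 in edgeR (0.216 in DESeq2), and an exact permutation test gave *P* = 0.2. The unadjusted *P* value in edgeR was 0.0926 without rat 61, 0.128 without rat 88, 0.107 without rat 64 and 0.0900 without rat 67.

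Ordered per length, *Hsd11b2* was the most abundant of the 9 genes in both groups, with 209 ± 28.6 TPM in AL and 311 ± 69.9 TPM in HD rats (SD, n = 3). It was followed by *Sgk1* (154 ± 23.6 and 150 ± 92.5 TPM) and *Tsc22d3* (127 ± 37.0 and 77.0 ± 21.1 TPM), and this order of 3 held in all 6 rats. *Nedd4l* came next in AL rats, with 48.2 ± 1.59 TPM, and had 43.9 ± 1.79 TPM in HD rats. *Scnn1b* and *Scnn1g* followed in AL rats with 35.9 ± 4.55 and 34.2 ± 5.49 TPM, within each other's spread. In HD rats they had 49.4 ± 11.0 and 35.3 ± 6.70 TPM. The HD mean of *Scnn1b* thus lay above that of *Nedd4l*, though in rat 67 *Scnn1b* was lower (37.7 against 41.9 TPM). *Scnn1a* (20.2 ± 6.03 TPM in AL rats) and *Nr3c1* (18.5 ± 3.78 TPM) were likewise within each other's spread. *Nr3c2* was the lowest in both groups, at 8.62 ± 1.48 and 7.91 ± 1.39 TPM.

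Markers of the cells that carry the channel were measured beside it. Of 7 tested principal cell markers, all 7 were lower in HD rats, 3 of them at an unadjusted *P* value below 0.05, with a median log2 fold change of −0.41. *Aqp2*, the vasopressin-regulated water channel that defines principal cells, was close in both groups (734 ± 99.4 and 709 ± 70.3 CPM), with a log2 fold change of −0.05. *Aqp3*, the basolateral water channel, was 379 ± 67.5 CPM in AL and 286 ± 25.6 CPM in HD rats, with a log2 fold change of −0.41. The summed TPM of the list was 1260 to 1670 in AL and 1070 to 1370 in HD rats.

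Relative to the mean of these 7 markers within each rat, the median of all other tested genes was 0.36 higher in HD rats on the log2 scale, and the groups did not overlap for 38.9% of them. With that shift included, *Hsd11b2* was 0.98, *Scnn1b* 0.86, *Scnn1g* 0.47 and *Nedd4l* 0.29 higher, so *Nedd4l* lay below the median gene. These were the 4 of the 9 genes whose groups did not overlap on this scale, a share near that of all genes. Each of the 4 had an exact permutation *P* of 0.1. Relative to *Aqp2* alone, where the median of all other tested genes was 0.05 and 11.2% of them did not overlap, 2 of the 9 genes had groups that did not overlap, *Hsd11b2* (0.67) and *Scnn1b* (0.55). *Scnn1g* (0.16) and *Nedd4l* (−0.02) overlapped there. *Tsc22d3* had differences of −0.29 and −0.60 relative to the list and to *Aqp2*, with overlapping groups in both cases.

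Markers of the distal convoluted and connecting tubule, the segments just before the collecting duct, differed far more. All 5 tested markers were higher in HD rats, 4 with an unadjusted *P* value below 0.05, and *Pvalb* was not tested, with at most 2 counts per rat. *Slc12a3*, the thiazide-sensitive sodium chloride cotransporter, was 27.6, 18.1 and 27.2 CPM in AL rats 61, 71 and 88, and 287, 51.5 and 216 CPM in HD rats 64, 67 and 69. Its log2 fold change was 2.93 ± 0.58 (SE), with an adjusted *P* value of 0.338 in edgeR and 0.00473 in DESeq2. *Calb1*, the calcium-binding protein of these segments, had 67.5 ± 40.4 CPM in AL and 281 ± 137 CPM in HD rats (SD, n = 3). The summed TPM of the 6 listed markers was 89.1, 303 and 160 in AL rats 61, 71 and 88, and 1420, 432 and 971 in HD rats 64, 67 and 69. The largest part of the sum in every rat was *Klk1*, from 47.0 TPM in rat 61 to 936 TPM in rat 64. In TPM, *Klk1*, *Calb1* and *Trpv5* each ranked the 6 rats as the sum did, and *Slc12a3* and *Slc8a1* did not. The 6 rats ranked in the same order by this sum and by *Hsd11b2* CPM, from rat 61 through 88, 71, 67 and 69 to rat 64. In TPM, the scale of the sum, the orders differed, since *Hsd11b2* was lower in rat 67 (230.2) than in rat 71 (237.4). *Scnn1b* ranked the HD rats in the same order as the sum, with rat 64 the highest and rat 67 the lowest. It did not rank the AL rats so in CPM, where rat 88 (49.2) lay below rat 61 (55.1). In TPM these AL rats were almost equal (33.3 in each). The part of this difference in tissue in the levels of *Hsd11b2* and *Scnn1b* was not tested.

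**Figure D4:**
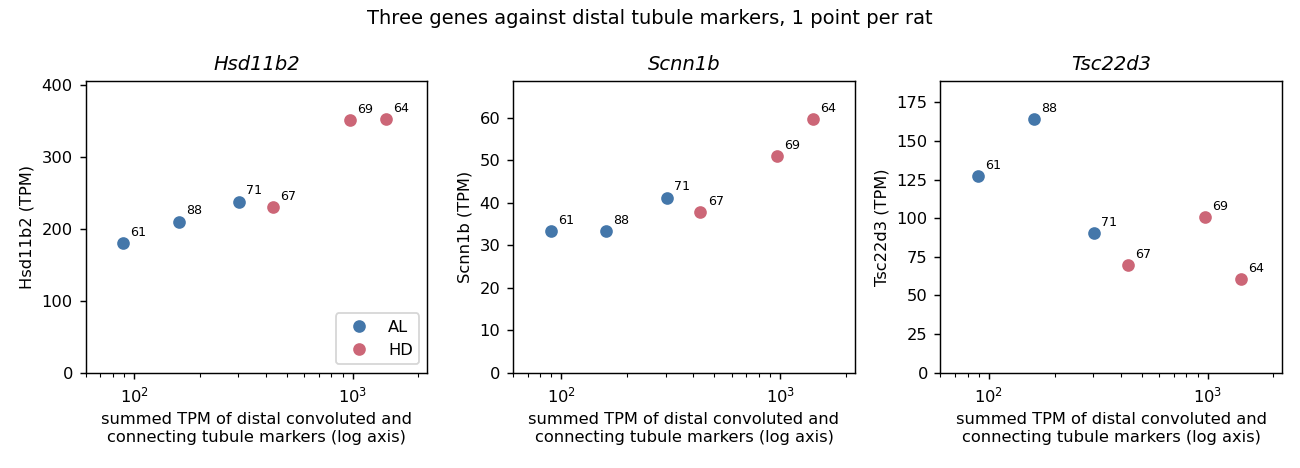
TPM of *Hsd11b2*, *Scnn1b* and *Tsc22d3* (vertical axes, starting at 0) against the summed TPM of 6 distal convoluted and connecting tubule markers (log axis), 1 point per rat with its number. The HD rats sit at sums of 432 to 1420 and the AL rats at 89.1 to 303, and rats 64 and 69 have both the highest sums and the highest *Hsd11b2* and *Scnn1b* levels. *Klk1* is the largest part of the sum in every rat.

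Other cell types also differed. The 5 inner medulla markers were all lower in HD rats, each with an unadjusted *P* value below 0.05, and their summed TPM was 112 to 615 in AL and 61.8 to 116 in HD rats. The 6 leukocyte markers were all lower, 4 with an unadjusted *P* value below 0.05, and the 5 podocyte markers were all higher, 3 of them so. Proximal tubule markers were higher for 7 of 8, 4 of them with an unadjusted *P* value below 0.05. Their summed TPM was 7750 to 8160 in AL and 7120 to 10000 in HD rats. The largest part of that sum in every rat was *Slc7a13*, with a log2 fold change of 0.04. Intercalated cell markers, from cells that neighbour the principal cells, were higher for 6 and lower for 2 of 8, with sums of 621 to 717 in AL and 574 to 691 in HD rats. Only *Slc26a4* (log2 fold change 1.2) and *Slc4a1* (−0.56) of these had an unadjusted *P* value below 0.05 in edgeR, in opposite directions. Thick ascending limb markers were lower for 5 of 6, endothelial markers for 4 of 5, and markers of vascular smooth muscle and mesangium for 2 of 5. What these differences contribute to the 9 genes was not tested.

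Beyond the 9 genes, 6 lists covered the rest of the pathway, and no gene of any list passed an adjusted *P* value of 0.05 in edgeR. Over all tested genes, 51.3% were higher in HD rats, and the counts of higher and lower genes below include differences close to 0. ENaC is cut by proteases and delivered by coat proteins on its way to the membrane. Of 9 tested genes of this list, 4 were higher and 5 lower in HD rats, 0 with an unadjusted *P* value below 0.05 in edgeR, and the median log2 fold change was −0.01. *Prss8*, the channel-activating protease prostasin, had 322 ± 17.2 CPM in AL and 364 ± 47.8 CPM in HD rats (SD, n = 3). *Sec23a*, a coat protein of vesicles leaving the endoplasmic reticulum, had the smallest *P* value of the list, with a log2 fold change of 0.46 ± 0.24 (SE) and an adjusted *P* value of 0.554 in edgeR.

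Of 11 tested genes of the SGK and mTORC2 kinase list, which holds the kinases that activate SGK1 and its substrates, 10 were higher and 1 lower, with a median log2 fold change of 0.10. *Ndrg1*, a classical SGK1 substrate, was 1040, 947 and 598 CPM in AL rats 61, 71 and 88, and 2310, 1560 and 1130 CPM in HD rats 64, 67 and 69. Every HD rat lay above every AL rat, though rats 69 and 61 were close. The log2 fold change was 0.95 ± 0.31 (SE), with an unadjusted *P* value of 0.0159 and adjusted *P* values of 0.406 in edgeR and 0.0643 in DESeq2. *Sgk2*, a relative of *Sgk1* that is abundant in kidney, had 45.4 ± 6.39 CPM in AL and 54.8 ± 12.6 CPM in HD rats.

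Receptor chaperones and coregulators, which hold the receptors ready for hormone and pass on their signal to chromatin, were higher for 6 and lower for 7 of 13, with a median of −0.05. The gene of the histone methyltransferase *Dot1l*, a repressor of *Scnn1a* in its complex with AF9, had 38.4 ± 5.13 CPM in AL and 28.7 ± 2.71 CPM in HD rats. Its groups did not overlap, and its log2 fold change was −0.42 ± 0.14 (SE), with an unadjusted *P* value of 0.0187 and an adjusted *P* value of 0.406 in edgeR. The receptor coactivator *Ncoa2* had a log2 fold change of 0.36 ± 0.31 (SE).

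Steroid metabolism, the list closest to *Hsd11b2* in function, was lower for 6 of 7 tested genes, with a median log2 fold change of −0.22. *Akr1d1*, the 5β-reductase that inactivates steroid hormones, had 21.4, 17.1 and 18.7 CPM in AL rats 61, 71 and 88, and 11.6, 14.0 and 13.2 CPM in HD rats 64, 67 and 69. The groups did not overlap, and the log2 fold change was −0.55 ± 0.16 (SE), with an unadjusted *P* value of 0.00859 and an adjusted *P* value of 0.398 in edgeR. *Akr1c14*, a hydroxysteroid dehydrogenase, had a log2 fold change of −0.54 ± 0.23 (SE), with an unadjusted *P* value of 0.0507 in edgeR. *Hsd11b1*, which works in the direction opposite to *Hsd11b2* and regenerates corticosterone, is named for that contrast after its values were seen. It had a mean of 1130 CPM in AL and 1110 CPM in HD rats, and counts as lower with a log2 fold change of −0.02.

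Of 22 tested glucocorticoid and mineralocorticoid targets other than *Sgk1* and *Tsc22d3*, 10 were higher and 12 lower, with a median of −0.08 that ran from −0.37 (without rat 69) to 0.19 (without rat 88). *Klf9*, a transcription factor induced by glucocorticoids, had 36.3, 37.9 and 42.8 CPM in AL rats 61, 71 and 88, and 69.3, 37.2 and 78.1 CPM in HD rats 64, 67 and 69. Rats 64 and 69 were high and rat 67 lay within the AL range. *Klf9* had a log2 fold change of 0.66 ± 0.26 (SE), with an unadjusted *P* value of 0.0366 and an adjusted *P* value of 0.441 in edgeR. *Fam107a* went the other way, with 46.0 ± 7.97 CPM in AL and 35.5 ± 3.06 CPM in HD rats, a log2 fold change of −0.37 ± 0.15 (SE) and an adjusted *P* value of 0.466 in edgeR.

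Distal effector transporters and their kinases were higher for 7 and lower for 7 of 14, with a median of 0.02. *Slc12a3* is described above. *Fxyd4*, a corticosteroid-induced regulator of the sodium pump in the collecting duct, had 143, 138 and 140 CPM in AL rats 61, 71 and 88, and 107, 109 and 96.3 CPM in HD rats 64, 67 and 69. The groups lay clearly apart, with a log2 fold change of −0.43 ± 0.10 (SE), an unadjusted *P* value of 0.00315 and adjusted *P* values of 0.368 in edgeR and 0.0151 in DESeq2. *Stk39*, which encodes the kinase SPAK that activates the *Slc12a3* cotransporter, had 64.5 ± 6.46 CPM in AL and 50.4 ± 7.71 CPM in HD rats, with a log2 fold change of −0.35 ± 0.14 (SE) and an unadjusted *P* value of 0.0417 in edgeR. *Slc12a3* and *Fxyd4* are also markers of their segments.

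**Figure D5:**
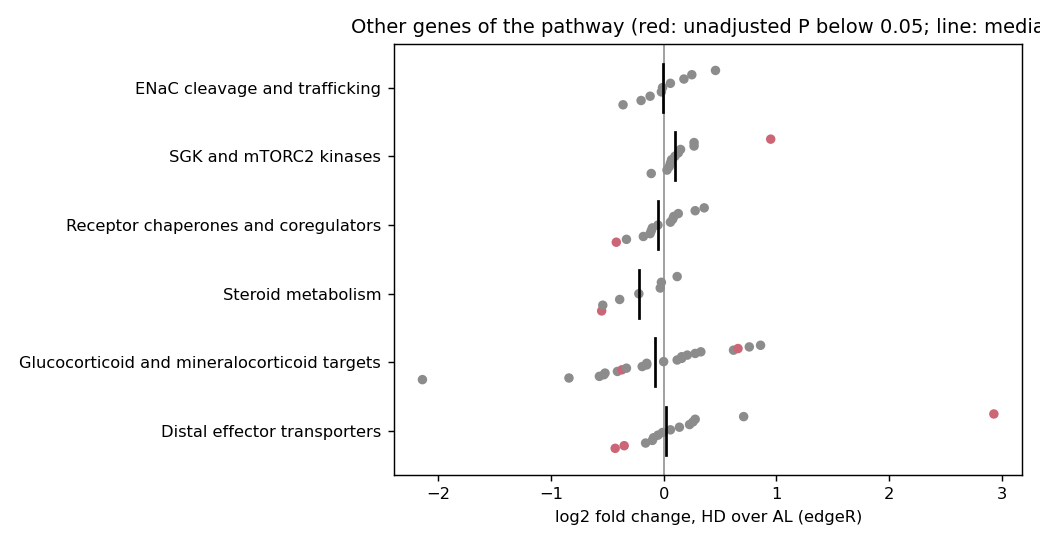
Log2 fold change, HD over AL, from edgeR for each tested gene of 6 pathway lists (points), with red for an unadjusted *P* value below 0.05 and a black line at the median of the list. The medians lie between −0.22 (steroid metabolism) and 0.10 (SGK and mTORC2 kinases), and *Slc12a3*, at 2.93, lies farthest to the right.

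The genes whose profile over the 6 rats was most like that of each of the 9 were found by the root mean square difference of centred log2 CPM over all tested genes. For *Hsd11b2* it was *Btbd9*, with a difference of 0.029, which had 7.47, 8.31 and 7.54 CPM in AL rats 61, 71 and 88, and 14.1, 9.09 and 13.0 CPM in HD rats 64, 67 and 69. *Desi2* was nearest to *Scnn1b* (0.0577), *Maoa* to *Scnn1g* (0.0448) and *Gadd45g* to *Scnn1a* (0.151). *Ctsh* was nearest to *Sgk1* at a difference of 0.228, the widest of the 9, and *Nrbp2* to *Tsc22d3* (0.0857). The 3 steady genes had close matches, with *Hnrnpk* for *Nedd4l* (0.0233), *Tnrc18* for *Nr3c1* (0.0375) and *Ptprf* for *Nr3c2* (0.0539). Among the 9 genes themselves, *Scnn1b* and *Hsd11b2* were the closest pair (0.109), while *Scnn1b* and *Scnn1g*, subunits of the same channel, differed by 0.262. With 6 points and 1 contrast, likeness of this kind is a description.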

How the data were processed

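RNA of 6 kidneys, 1 library per rat and none pooled, was poly(A)-selected and sequenced with single-end reads. The authors assigned reads to transcripts with RSEM 1.1.15 (version from the submitters' processing notes) and UCSC gene models of rn5. They deposited an estimated count (expected count) per transcript, not normalized, a posterior mean of it, and TPM, scaled to transcript length and library. Read filters and strand settings are not given in the sources used here. Estimated counts were summed per gene and rounded, and genes with at least 30 in at least 1 rat were tested.

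Groups were compared with the quasi-likelihood test of edgeR 4.0.16 (R 4.3.3, TMM) with diet as the only factor and Benjamini-Hochberg adjustment over all tested genes. The biological coefficient of variation was 0.242. DESeq2 1.42.0, the tool of the study's methods, was an alternative. Single values were compared by two-sided exact permutation of the 6 rats (10 divisions), which cannot give *P* below 0.1. The scripts were tested on simulated data. Python 3.11.15, pandas 2.3.3 and matplotlib 3.10.9 served for tables and plots.

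The 9 genes, the pathway and marker lists and the rules were chosen with earlier results of these data known. Named were the 9 genes, the list genes with an unadjusted *P* value below 0.05 (at most 5, and the 2 smallest where fewer passed), the leading markers of the lists a result touches, and the nearest profile of each gene. Alternatives were RLE, library size alone, robust edgeR, other filters, the most abundant transcript, posterior mean counts, and leaving out each rat. FPKM was not used.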

Additional observations from a re-analysis of the deposited data

How the results depend on the processing

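Across 14 alternatives the log2 fold changes of *Hsd11b2*, *Scnn1b*, *Tsc22d3*, *Nedd4l* and *Nr3c1* kept their direction. *Hsd11b2* had an unadjusted *P* value below 0.05 in all 14 (0.000476 to 0.0203), *Scnn1b* in 13 and *Tsc22d3* in 10. DESeq2 called 1 of the 9 genes after adjustment, and edgeR 0 in every setting. With library size alone, 1 gene rather than 2 had groups that did not overlap, and the log2 fold change of *Sgk1* reversed to −0.05. Leaving out 1 rat, it ranged from −0.62 to 0.29 for *Sgk1*, −0.13 to 0.51 for *Scnn1a*, −0.05 to 0.26 for *Scnn1g* and −0.17 to 0.07 for *Nr3c2*, each range holding a reversal. The cause was not tested. Over the same settings 1 to 3 of the 9 genes had an unadjusted *P* value below 0.05, 2 to 4 had groups that did not overlap, and 606 to 1744 genes were below 0.05 in all. In none of the 14 alternatives was the share of all genes without overlap counted. The list medians changed sign in some setting for 4 of the 6 pathway lists, and kept it for the SGK and mTORC2 kinases and for steroid metabolism. Leaving out 1 rat in DESeq2, an alternative chosen after seeing the data, gave *Hsd11b2* log2 fold changes of 0.51 to 0.80. With 3 rats per group, intervals as wide as that of *Sgk1* (−0.90 to 0.98) leave changes of moderate size undetectable. No paired analysis was possible because the groups are different rats, and their replicate numbers follow accession order and tie no AL rat to an HD rat.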
